A study of Mus musculus with 3 samples.

Results

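Transcripts of inflammatory mediators are short-lived because proteins bind their tails and recruit the enzymes that remove the poly(A) tail and degrade the message. This account concerns 5 genes for regulators of mRNA decay or stability, Zfp36, Zfp36l1, Zfp36l2, Zc3h12a and Elavl1, out of the 32285 genes of the count tables. They were chosen by their symbols, with earlier results of these data known. Zfp36 encodes tristetraprolin, and Zfp36l1 and Zfp36l2 encode its relatives, zinc-finger proteins that bind AU-rich elements in the 3′ untranslated region and bring in the CCR4-NOT deadenylase. Zc3h12a encodes Regnase-1, an endonuclease that cuts stem-loops in transcripts such as Il6. Elavl1 encodes HuR, which binds U-rich and AU-rich stretches and tends to stabilise them. The kinase p38α activates MK2 (Mapkapk2), which phosphorylates tristetraprolin and lowers its capacity to bring about decay, while p38 activity also raises the amount of Zfp36 transcript in stimulated myeloid cells. Only transcripts were measured here, so neither phosphorylation nor decay rates were observed.

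Single-cell RNA sequencing with 10x Genomics 3′ chemistry was carried out on live CD45+ leukocytes sorted from primary mammary tumors. All mice were female BALB/c, 6 to 8 weeks old at implantation, and each received 200000 cells of 4T1-luc, a mouse mammary carcinoma line carrying luciferase, in a mammary fat pad. In the vehicle group, mice with p38α wild-type tumors received DPBS; in the p38i group, mice with the same tumors received the p38 inhibitor LY2228820 (ralimetinib) at 30 mg/kg by daily gavage; both treatments ran for 10 days from day 4. In the p38KO group, mice carried tumors of p38a-KO-H9, cells in which Mapk14, the gene of p38α, had been inactivated by CRISPR-Cas9, so the leukocytes themselves were wild type, and the labels list no treatment. Tumors of 3 mice per group were pooled at day 14 into 1 library, so there were 3 libraries and no replicates. H9 is 1 clone of knockout cells, and with 1 library per group the condition, the animals and the processing of a library cannot be told apart.

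Of 4588, 6343 and 5212 barcodes (vehicle, p38i, p38KO), 3820, 4793 and 3859 had at least 1500 counts, at least 300 genes and at most 20% mitochondrial counts and were kept, with 20795195, 24210342 and 24374173 counts. The median mitochondrial share of kept cells was 0.671%, 0.968% and 2.10%, and 10, 12 and 12 kept barcodes also occurred in another library. Cells were assigned to 6 gates by raw counts of Csf3r and Cxcr2 (neutrophils), Ly6c2 and Fn1 (monocytes), C1qa (macrophages), Cd3e (T cells), Ncr1 (NK cells) and Flt3 (dendritic cells, DC). The gates held 2019, 2437 and 1750 neutrophils, 553, 888 and 385 monocytes, 271, 274 and 793 macrophages, 451, 574 and 464 T cells, 105, 108 and 112 NK cells and 19, 37 and 42 DC, and 402, 475 and 313 cells stayed outside. Every gate had markers of its own type, which the gating partly fixed, since each marker list includes the genes that define its gate. All 8 neutrophil markers summed to between 139610 and 201361 CPM (counts per 1000000 counts of the gate) in the neutrophil gate. Cells with their own markers highest made up 48.1%, 51.7% and 56.1% of the monocyte gate and 61.6%, 70.1% and 71.5% of the macrophage gate. In the other gates this share ran from 80.4% (NK cells, p38KO) to 99.0% (neutrophils, vehicle). The monocyte gate was mixed: neutrophil markers summed to 8756, 8350 and 2719 CPM there, against 6156, 5816 and 6706 CPM for its own, and T cell markers to 700, 311 and 714 CPM. Mast cell markers were higher in 5 gates of the p38KO library, most in NK cells, at 1162 CPM against 49.5 CPM in vehicle and 23.1 CPM in p38i, and neutrophil markers were higher in the T cell gate of the p38i library, at 3100 CPM against 1170 and 1062 CPM. Over all kept cells Mapk14 was at 33.7 CPM in vehicle, 42.1 CPM in p38i and 39.1 CPM in p38KO, which does not check the knockout, since the CD45+ sort leaves tumor cells out.

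Counts were summed over the cells of a gate and divided by the gate's total, so that a level is in CPM. In such a sum, fewer cells with the transcript and less transcript per cell cannot be told apart. Each CPM has an exact Poisson 95% interval and each log2 ratio of 2 libraries an exact conditional binomial 95% interval. Both cover counting error only. A ratio was called higher or lower when it was at least 0.5 in absolute log2, its interval left out 0 and the libraries held at least 20 counts together, which is a statement about these libraries and not a test of the treatments.

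The sites these proteins are known to bind are shown to let a reader see the letters searched for in the members and in listed targets. The motif UUAUUUAUU, preferred by tristetraprolin, occurs in the longest annotated 3′ untranslated region of 7.62% of 20903 genes (GENCODE M21), and its core UAUUUAU in 27.6%. Zfp36, Zfp36l1 and Zfp36l2 each hold 1 copy of the longer motif, Elavl1 holds 8 overlapping or separate copies, and Zc3h12a holds neither form. Among 37 transcripts listed as targets of these proteins, 25 hold the core and 13 the longer motif. A stretch of 29 bases is printed for members and for the target transcripts described below, 5′ to 3′, with motif copies in capitals (the longer motif, or the core for Il1b, Il6 and Ier3, where the longer one is missing).
Zfp36: uaugacgacuUUAUUUAUUguauuaagau
Zfp36l1: aacuguuggaUUAUUUAUUuuagaaauuc
Zfp36l2: acuauuuaacUUAUUUAUUaucuugugaa
Elavl1: aaaaUUAUUUAUUUAUUUAUUUAUUuuua
Tnf: aUUAUUUAUUAUUUAUUUAUUAUUUAUUu
Il1b: uuaccUAUUUAUUUAUgUAUUUAUugauu
Cxcl2: UUAUUUAUUuaucuauguauUUAUUUAUU
Ptgs2: cugaccauauUUAUUUAUUuaugugaaga
Il6: uuuaugauugaUAUUUAUuauuuuuauga
Ier3: uaauuaaUAUUUAUgUAUUUAUguauauc
Dusp1: gagcugguccUUAUUUAUUuaacaccccc
A match is a description of the letters and not evidence of binding in these cells.

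Zfp36 (ENSMUSG00000044786, minus strand of chromosome 7, 28376784 to 28380253 on GRCm38) was the member whose level depended most on the cell type. In the vehicle library it stood at 1429 CPM in neutrophils, 442 CPM in monocytes, 210 CPM in DC, 194 CPM in macrophages, 59.0 CPM in T cells and 29.7 CPM in NK cells, a 48.1-fold range. Each neighbouring pair in this order was separated by an interval without 0 except DC and macrophages, whose log2 ratio was 0.11 (-0.28 to 0.48). In the p38KO library macrophages and DC changed places, and their interval (-0.01 to 0.64) again held 0. Neutrophils were highest and NK cells lowest in all 3 libraries.

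**Figure D1:**
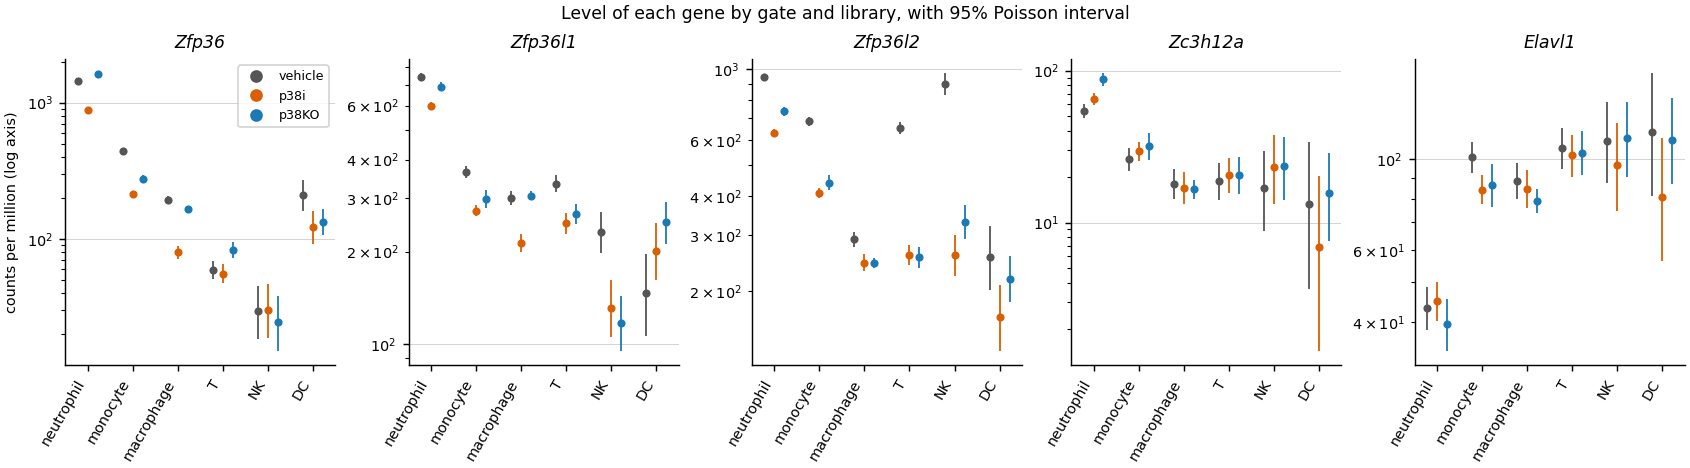
Level of each of the 5 genes in CPM (log axis) in the 6 gates, as points for the vehicle, p38i and p38KO libraries with 95% Poisson bars. Zfp36 falls from 1429 CPM in neutrophils to 29.7 CPM in NK cells of the vehicle library, and Zfp36l2 in T and NK cells is far higher in the vehicle library than in either of the others.

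With the inhibitor, Zfp36 was lower in all 3 myeloid gates and in DC. In neutrophils it stood at 1429 CPM in vehicle, 876 CPM in p38i and 1612 CPM in p38KO, so the p38i library was the low one and p38KO was slightly above vehicle. The log2 ratio to vehicle was -0.71 (-0.75 to -0.66) in p38i, called lower, and 0.17 (0.13 to 0.22) in p38KO, not called. The median over all genes tested was 0.14 and 0.16 in these comparisons, and relative to it the values were -0.85 and 0.01. Over all genes of the neutrophil gate, 3.08% were called lower in p38i and 2.23% in p38KO.

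In monocytes Zfp36 stood at 442, 214 and 277 CPM in vehicle, p38i and p38KO, so the p38i and p38KO libraries were below vehicle. The log2 ratios were -1.05 (-1.14 to -0.95) and -0.68 (-0.79 to -0.56), both called lower, in a gate where 4.5% and 2.78% of genes were. When only cells with their own markers highest were kept, an alternative chosen after seeing the data, the levels were 422, 199 and 325 CPM, and the p38KO ratio of -0.38 was no longer called. In macrophages the levels were 194, 79.7 and 165 CPM: p38i was again lowest, and p38KO lay close to vehicle. The log2 ratio was -1.29 (-1.48 to -1.10) in p38i, called lower among 5.24% of genes, and -0.24 (-0.35 to -0.12) in p38KO, not called. DC gave 63, 53 and 85 counts of Zfp36, or 210, 122 and 133 CPM, with log2 ratios of -0.78 (-1.33 to -0.23) and -0.65 (-1.14 to -0.16), both called lower (4.54% and 3.92% of genes). Only 19 cells of the vehicle library stand behind the DC values. The p38KO call was lost among cells without counts of other gates' genes, at -0.26 (-0.87 to 0.34), and as the mean over cells, at -0.19.

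The lymphoid gates held little Zfp36. In T cells it stood at 59.0, 55.5 and 82.8 CPM, with log2 ratios of -0.09 (-0.41 to 0.24) for p38i and, for p38KO, 0.49 (0.19 to 0.79), neither called. Neutrophil markers in this gate were highest in p38i, and among T cells with T cell markers highest the levels were 51.4, 35.5 and 63.5 CPM and the p38i ratio of -0.53 was called lower. The p38KO ratio, just under the limit, passed it without the cell filter (0.51), without the deepest cells (0.56) and as the mean over cells (0.67). In NK cells each library had 20 or 21 counts, and the intervals of -0.92 to 0.97 (p38i) and -1.23 to 0.69 (p38KO) were too wide to show a difference. The p38KO library exceeded the p38i library in neutrophils by a log2 ratio of 0.88 (0.83 to 0.93), in macrophages by 1.05 (0.88 to 1.22) and in T cells by 0.58 (0.27 to 0.89), all called higher, against 11.2%, 11.9% and 5.12% of genes called higher between these libraries in the same gates.

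Shares of cells with a count were also compared. To remove the effect of depth, each cell was thinned to 1500 counts. A Zfp36 count was then found in 72.4% (70.4 to 74.3, exact Clopper-Pearson 95% interval) of vehicle neutrophils, 60.7% (58.8 to 62.7) of p38i and 77.4% (75.4 to 79.4) of p38KO neutrophils. In macrophages the shares were 26.6%, 13.5% and 23.7%. The lowest share of any gate was that of NK cells, 5.71%, 6.48% and 4.46%. No gate is known to lack the gene, so these are no measure of free RNA. The p38i share was thus below the vehicle share in neutrophils and macrophages at equal depth.

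**Figure D2:**
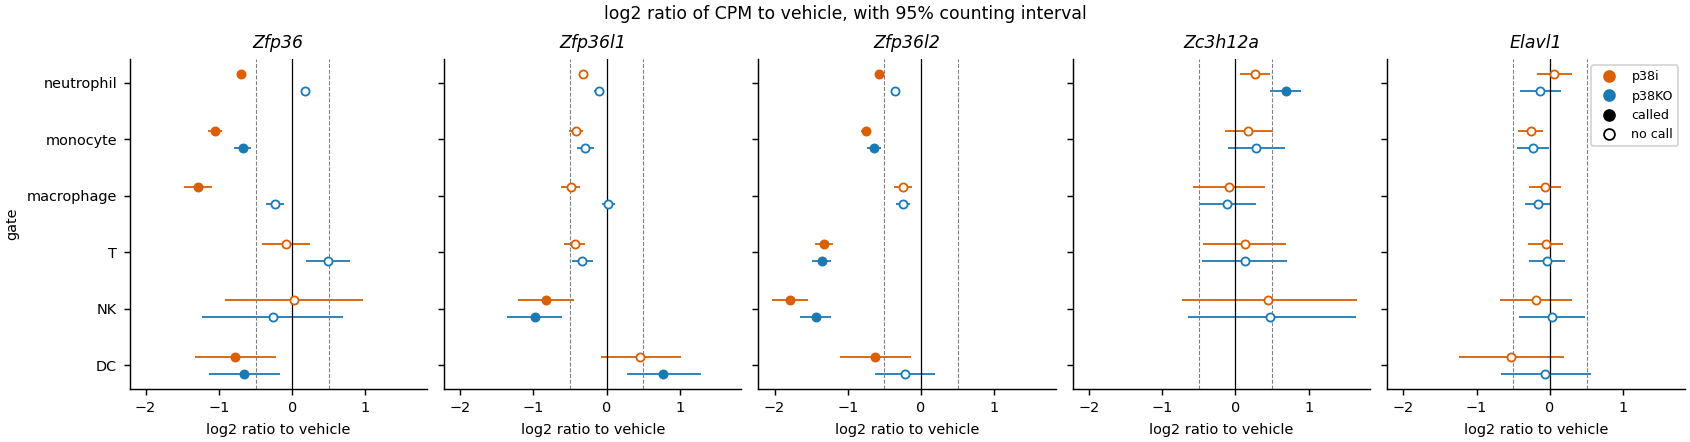
log2 ratio of CPM to the vehicle library for each gene (panels) and gate (rows), p38i and p38KO, with 95% counting intervals; filled points are called, open points are not, dashed lines mark 0.5 in either direction and Zc3h12a in DC is left out for too few counts. Zfp36 is lower in p38i in the 3 myeloid gates and DC, and Zfp36l2 is lower in both libraries in T and NK cells.

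Zfp36l2 (ENSMUSG00000045817, minus strand of chromosome 17, 84183931 to 84187947) was the member with the largest differences in lymphocytes, where it is known to restrain cytokine translation and proliferation. In T cells it stood at 654 CPM in vehicle, 261 CPM in p38i and 256 CPM in p38KO. The p38i and p38KO libraries were thus at nearly the same low level. Their log2 ratios were -1.33 (-1.45 to -1.20) and -1.35 (-1.49 to -1.22), called lower where 2.19% and 3.37% of genes were. In NK cells the levels were 901, 261 and 332 CPM, with log2 ratios of -1.79 (-2.03 to -1.55) and -1.44 (-1.65 to -1.23), called lower where 5.24% and 5.88% of genes were. Both comparisons use the same vehicle library, so a high value there enters both. After thinning, 53.0%, 31.5% and 34.3% of T cells and 72.4%, 35.2% and 43.8% of NK cells had a Zfp36l2 count. The lowest share in any gate was 26.3% (vehicle), 16.2% (p38i) and 23.8% (p38KO), each in DC.

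The T cell difference was present in each of the 3 T cell subsets examined. T cells without Foxp3 that had neither or both of Cd4 and Cd8 counts were in no subset. Among T cells with Cd8a or Cd8b1 and no Cd4, Zfp36l2 stood at 479, 170 and 239 CPM in 194, 200 and 110 cells, with log2 ratios of -1.49 (-1.72 to -1.27) and -1.004 (-1.27 to -0.75). Among Cd4 cells without Foxp3 it stood at 785, 374 and 207 CPM in 108, 122 and 151 cells, with log2 ratios of -1.07 (-1.33 to -0.82) and -1.92 (-2.19 to -1.66). Here p38KO was also below p38i, by a log2 ratio of -0.85 (-1.16 to -0.54). Among cells with Foxp3, the transcription factor of regulatory T cells, it stood at 717, 273 and 240 CPM in 68, 112 and 96 cells, with log2 ratios of -1.39 (-1.71 to -1.08) and -1.58 (-1.89 to -1.28). All 6 ratios to vehicle were called lower. Over all genes, p38i was called lower in 3.26% (Cd8), 3.2% (Cd4 without Foxp3) and 3.21% (Foxp3), p38KO in 5.14%, 3.67% and 3.56%, and p38KO against p38i in 4.03% among Cd4 cells without Foxp3.

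Myeloid cells showed smaller differences of Zfp36l2. In neutrophils it stood at 943, 632 and 738 CPM; the log2 ratio of -0.58 (-0.63 to -0.52) in p38i was called lower and that of -0.35 (-0.41 to -0.29) in p38KO was not. The p38i call was lost without a cell filter (-0.47), without the deepest cells (-0.49) and as the mean over cells (-0.49). With median-ratio scaling the p38KO ratio was -0.52 and called lower. Neutrophils without a Cxcr2 count held more of it than those with one in every library, at 1265, 1075 and 1264 CPM against 862, 536 and 647 CPM. Cxcr2 is the receptor that draws neutrophils to CXCL chemokines. The log2 ratios to vehicle were -0.69 (-0.75 to -0.62) and -0.41 (-0.49 to -0.34) with Cxcr2 and -0.24 (-0.34 to -0.13) and 0.00 (-0.12 to 0.12) without, and the p38i ratio with Cxcr2 was called lower, where 2.76% of genes were. Zfp36 was called lower in p38i in both, at -0.74 with Cxcr2 and -0.56 without, where 4.17% of genes were. Whether these ratios differ was not tested. In monocytes the levels were 686, 407 and 440 CPM, both called lower at -0.75 (-0.83 to -0.68) and -0.64 (-0.73 to -0.55). Among monocytes without counts of other gates' genes the p38KO ratio was -0.39 (-0.52 to -0.26) and no longer called. Macrophages gave 292, 247 and 246 CPM and no call, though the p38KO ratio as the mean over cells, -0.58, was called lower. The 56, 36 and 93 macrophages without counts of other gates' genes held 295, 278.5 and 301 CPM. Neutrophil markers summed to 5386, 5980 and 3770 CPM there, above the 4073, 2922 and 2162 CPM of the full gate. Their part was not tested. Macrophages with their own markers highest, chosen after seeing the data, held 201, 213 and 211 CPM. Neither alternative gave a call, and p38KO was not below vehicle in either. DC gave 256, 166 and 220 CPM, with -0.62 (-1.11 to -0.14) called lower in p38i and -0.22 (-0.63 to 0.20) not called in p38KO. The p38i call was lost in a gate at 2 counts, where the interval of -0.61 just held 0.

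Zfp36l1 (ENSMUSG00000021127, minus strand of chromosome 12, 80107754 to 80113013) acts with Zfp36l2 in lymphocyte development and quiescence. Its level was highest in neutrophils, at 746, 597 and 692 CPM in vehicle, p38i and p38KO. The log2 ratios were -0.32 (-0.38 to -0.26) and -0.11 (-0.17 to -0.04). Monocytes held 365, 273 and 297 CPM, macrophages 299, 213 and 304 CPM and T cells 334, 247 and 266 CPM. The p38i library was lowest in each of these 4 gates, but no ratio to vehicle there reached 0.5. Under some alternatives it was called lower in p38i: in T cells under 4 of them (-0.54 to -0.50), in macrophages under 3 (-0.58 to -0.53) and in monocytes under 2 (-0.58 and -0.52), while in neutrophils none gave a call. In macrophages p38KO exceeded p38i by a log2 ratio of 0.51 (0.41 to 0.62), called higher.

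In NK cells Zfp36l1 stood at 232, 131 and 117 CPM and was called lower in both libraries, at -0.82 (-1.21 to -0.44) and -0.98 (-1.36 to -0.61). These calls were lost when cells with a count of another gate's genes were left out: the 61, 82 and 64 NK cells that remained held 158, 145 and 143 CPM, with ratios of -0.13 and -0.15. Both calls were kept under the other alternatives. Among the 94, 97 and 90 NK cells with their own markers highest, chosen after seeing the data, the levels were 229, 124 and 106 CPM. T cell markers stood at 854, 685 and 741 CPM in those cells and at 1232, 744 and 761 CPM in the full NK gate. Their part in the difference was not tested. In DC the direction was the opposite, at 146, 201 and 249.3 CPM. The p38i ratio was 0.46 (-0.08 to 1.01) and the p38KO ratio 0.77 (0.28 to 1.28), the latter called higher where 7.07% of genes were. After thinning, 36.8%, 21.6% and 31.0% of DC had a Zfp36l1 count, from 7, 8 and 13 cells, so these shares were not above vehicle.

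Among T cells, Zfp36l1 was highest in those with Foxp3. It stood there at 895, 438 and 510 CPM, against 318, 241 and 211 CPM in Cd4 cells without Foxp3 and 205, 156 and 126 CPM in Cd8 cells. In each library the Foxp3 cells were above both other subsets, by a log2 ratio to Cd4 cells of 1.49 (1.22 to 1.77), 0.86 (0.53 to 1.20) and 1.27 (1.00 to 1.55). The p38i and p38KO libraries were below vehicle in the Foxp3 cells, by -1.03 (-1.29 to -0.78) and -0.81 (-1.04 to -0.58), called lower. The p38KO ratio was called lower in Cd8 cells too, at -0.70 (-1.07 to -0.34), and in Cd4 cells without Foxp3, at -0.59 (-0.91 to -0.28), while the p38i ratio, -0.40 in each, was not called. Zfp36 stood at 156, 69.8 and 159 CPM in Foxp3 cells. The log2 ratio to Cd4 cells without Foxp3 was 1.71 (1.02 to 2.44) in vehicle, 0.26 (-0.50 to 1.03) for p38i and, for p38KO, 1.85 (1.28 to 2.45), so only p38i had an interval that held 0. There the p38i ratio to vehicle was -1.16 (-1.83 to -0.52) and that of p38KO was 0.03 (-0.46 to 0.53).

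**Figure D3:**
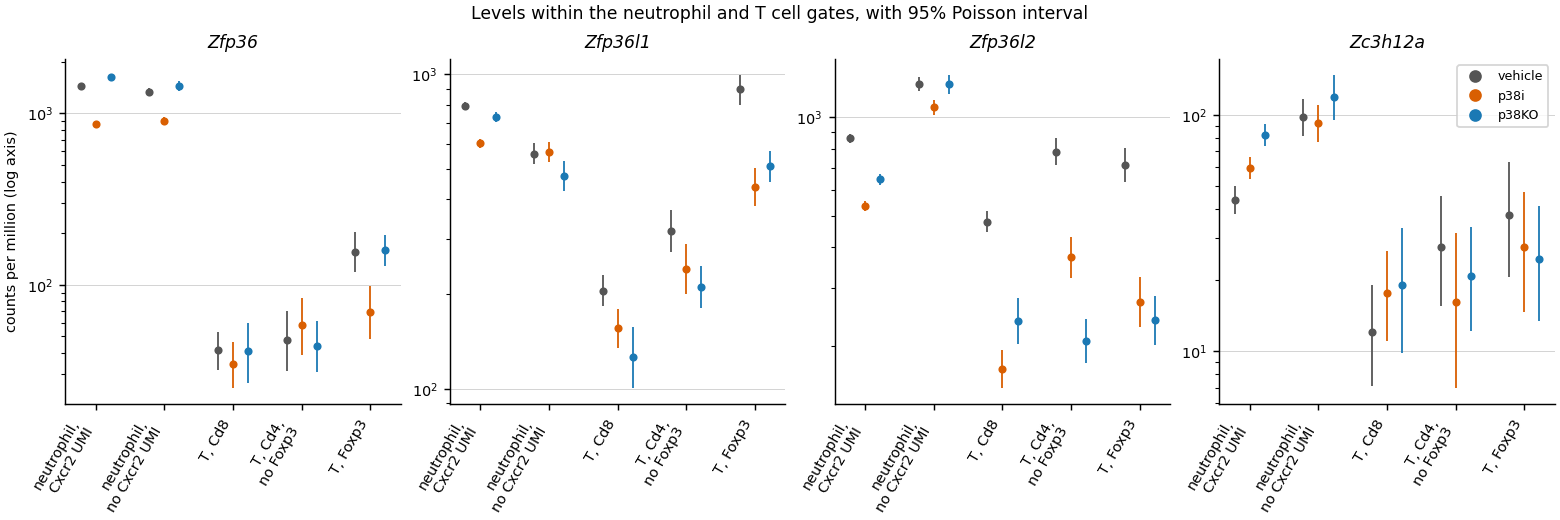
Level in CPM (log axis) of Zfp36, Zfp36l1, Zfp36l2 and Zc3h12a in neutrophils with and without a Cxcr2 count and in 3 T cell subsets, per library with 95% Poisson bars. Zfp36l1 is highest among T cells in those with Foxp3, and Zfp36l2 is below vehicle in both other libraries in every T cell subset.

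Zc3h12a (ENSMUSG00000042677, minus strand of chromosome 4, 125118423 to 125127840) went the other way in neutrophils. It stood at 54.4, 65.3 and 87.7 CPM, in the order vehicle, p38i, p38KO. The log2 ratios were 0.26 (0.06 to 0.47), not called, and 0.69 (0.48 to 0.90), called higher where 12.6% of genes were. As the mean over cells the p38KO ratio was 0.49, just under the limit. In neutrophils with Cxcr2 the levels were 43.5, 59.5 and 82.3 CPM, and the p38KO ratio was 0.92 (0.67 to 1.18), called higher where 14.9% of genes were. Neutrophils without Cxcr2 held 98.0, 92.2 and 119 CPM, and the ratio of 0.28 (-0.14 to 0.70) was not called. Outside neutrophils Zc3h12a was low: monocytes held 26.1 to 31.8 CPM, macrophages 16.6 to 17.98 CPM, T cells 18.8 to 20.6 CPM and NK cells 17.0 to 23.4 CPM, with no call. When only monocytes with their own markers highest were kept, chosen after seeing the data, the levels were 21.3, 27.3 and 42.7 CPM, and the p38KO ratio of 1.005 (0.48 to 1.54) was called higher. DC had 4, 3 and 10 counts, too few for a call.

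Elavl1 (ENSMUSG00000040028, minus strand of chromosome 8, 4285382 to 4325413) gave no call in any gate. It was the member lowest in neutrophils, at 43.2, 44.9 and 39.5 CPM, while the other gates ranged from 79.1 to 117 CPM. The log2 ratio of the next lowest gate to neutrophils was 1.03 (0.81 to 1.27) in vehicle, 0.85 (0.30 to 1.35) for p38i and, for p38KO, 1.00 (0.77 to 1.24). The p38i ratios to vehicle ran from -0.53 to 0.06 and the p38KO ratios from -0.23 to 0.03. The widest was that of DC in p38i, -0.53 (-1.25 to 0.19), from 35 counts in each library. Elavl1 overlaps Ccl25 on the opposite strand, Zfp36l1 overlaps the lincRNA Gm26669 on the opposite strand, and Zfp36 and Zfp36l2 overlap the antisense genes Gm44710 and AC132455.1. The sources used here do not say whether counting used strand.

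Over the 30 pairs of member and gate, p38i was called lower in 10 and higher in 0, with 19 not called and 1 with too few counts. In p38KO 6 were lower, 2 higher, 21 not called and 1 too sparse. All calls of lower were of the 3 Zfp36-family genes. Those 10 calls were of Zfp36 in 4 gates, Zfp36l2 in 5 and Zfp36l1 in 1, against a background of 2.19% to 5.24% of genes called lower per gate. Genes called higher in p38i made up 10.5% in neutrophils, 3.28% in monocytes, 2.29% in macrophages, 5.4% in T cells, 2.86% in NK cells and 7.93% in DC, and no member was among them. The 6 calls in p38KO were of Zfp36l2 in 3 gates, Zfp36 in 2 and Zfp36l1 in 1, against 2.23% to 5.88% (3.49% in macrophages, with no member). In the same order of gates, 12.6%, 9.07%, 9.4%, 9%, 4.56% and 7.07% of genes were called higher in p38KO. Between p38KO and p38i, 4 pairs were higher and 0 lower, with 10.6%, 4.74% and 6.64% of genes higher in monocytes, NK cells and DC, where no member was called. The values of 1 gene in different gates come from the same library and are not independent.

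The levels of the members varied together only in part over the 18 sums of a library and a gate. On log2(CPM + 10), Zfp36 correlated with Zfp36l1 at Pearson r = 0.84 (Spearman rho 0.75), with Zc3h12a at 0.72 (0.49), with Zfp36l2 at 0.46 (0.34) and with Elavl1 at -0.82 (-0.62). These sums share libraries and depth, and the correlations are descriptions. Of 2959 genes with a mean of at least 50 CPM, the 5 most like Zfp36 were Il1b (r = 0.98), which encodes interleukin-1β, Mcl1 (0.98), a survival factor of the Bcl2 family, Rhog (0.97), Trib1 (0.96) and Irgm1 (0.96). Among those most like Zfp36l1 were Cd274 (0.93), which encodes PD-L1, Cstdc4 (0.93), Ccrl2 (0.92) and Cxcl2 (0.92). Zfp36l2 was most like Neurl3 (0.86), Btg1 (0.84), an antiproliferative partner of the CCR4-NOT complex, Ythdf3 (0.84), Fosl2 (0.83) and Herc4 (0.83). Zc3h12a was most like Tut7 (0.98), a terminal uridylyltransferase, Eif5 (0.96), Jdp2 (0.95), Ypel5 (0.95) and Sorl1 (0.95). Elavl1 was most like Mrpl24 (0.97), Efr3a (0.97), Prpf8 (0.96), Atp5e (0.96) and Sarnp (0.96).

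Mapk14 and Mapkapk2, the kinases named above, gave no call in any of the 6 gates in either comparison, with Mapkapk2 at 311, 309 and 382 CPM in neutrophils. Dusp1, a phosphatase that inactivates p38, was the gene called in both libraries in a list of 14 genes of the p38-MK2 axis. It stood at 2260, 714 and 1482 CPM in neutrophils, at 486, 163 and 147 CPM in monocytes and at 194, 40.0 and 67.4 CPM in macrophages. Vehicle was highest each time, and the log2 ratios were -1.66 (-1.71 to -1.62) and -0.61 (-0.65 to -0.57) in neutrophils, -1.58 (-1.68 to -1.48) and -1.72 (-1.87 to -1.58) in monocytes and -2.28 (-2.53 to -2.03) and -1.52 (-1.67 to -1.38) in macrophages. It was called lower in both libraries in T and NK cells as well. In neutrophils Dusp1, like Zfp36, was higher in p38KO than in p38i, by 1.05 (1.00 to 1.11). Of the axis genes tested in neutrophils, 1 of 11 was called lower in p38i and 2 of 11 in p38KO (3.08% and 2.23% of all genes). The medians were 0.15 and 0.19 beside 0.14 and 0.16 over all genes. The second gene in p38KO was Mapk13, which encodes another p38 kinase, at 52.0 CPM in vehicle and 32.5 CPM in p38KO, and it was called lower in p38KO monocytes too. Mapkapk3, a relative of Mapkapk2, was called higher in p38i macrophages, at 0.52 (0.17 to 0.87), and in p38KO T cells, at 1.03 (0.74 to 1.33). In the other 5 gates 1 axis gene was called lower in each p38i gate. There 12 were tested in monocytes, macrophages and T cells and 10 in NK cells and DC. The shares of all genes called lower in p38i were 4.5%, 5.24%, 2.19%, 5.24% and 4.54% in that order. In p38KO 2 of 11 were lower in monocytes, 1 of 12 in macrophages, 1 of 12 in T cells, 2 of 10 in NK cells and 0 of 10 in DC. The shares of all genes were 2.78%, 3.49%, 3.37%, 5.88% and 3.92%. In p38KO 2 axis genes were called higher in T cells and 2 in DC, where 9% and 7.07% of genes were.

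The 200 bases before the RefSeq start of Zfp36 and of Dusp1 (GRCm38.p6, both minus strand) are shown, with motifs in capitals. They are shown because both genes were called lower in p38i neutrophils. The Zfp36 stretch lies inside the GENCODE span of the gene given above (28376784 to 28380253). The distances below therefore hold for the RefSeq start only. In Zfp36 the capitals are a CArG box and a GAS site (TTCNNNGAA). The CArG box, the site of serum response factor, starts 58 bases before the start and the GAS site 17 bases before the start. In Dusp1 the capitals are CRE half-sites (TGACG), 3 counting both strands. Those starting 143 and 140 bases before the start overlap in a full CRE, TGACGTCA, which reads the same on both strands. Of 32851 promoters of 300 bases, 1.63% hold a CArG box, 8.30% a GAS site and 20.8% a CRE half-site. CRE half-sites were also found in the promoters of Zc3h12a (just after the start), Btg2, Fos and Junb. Those of Btg2 likewise overlap in a full CRE, TGACGTCA. An NF-kB site (in 4.51% of promoters) was found in the promoter of Fos. An AP-1 site (TGANTCA, in 7.81% of promoters) was found in that of Zfp36l1.
Zfp36, chr7:28379229-28379428: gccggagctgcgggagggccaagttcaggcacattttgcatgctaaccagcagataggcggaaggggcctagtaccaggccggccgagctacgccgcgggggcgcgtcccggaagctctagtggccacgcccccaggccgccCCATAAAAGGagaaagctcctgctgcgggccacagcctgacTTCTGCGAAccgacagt
Dusp1, chr17:26508473-26508672: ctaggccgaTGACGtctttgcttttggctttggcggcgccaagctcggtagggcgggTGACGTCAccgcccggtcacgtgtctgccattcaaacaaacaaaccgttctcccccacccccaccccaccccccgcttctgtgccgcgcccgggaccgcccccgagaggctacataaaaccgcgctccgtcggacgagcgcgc
Both strands were searched, a GAS site and a CRE half-site can overlap other motifs, and a match says only that the letters are there.

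Immediate-early genes, transcription factors induced within minutes of a stimulus, were called in both directions. Over the 6 gates 2.19% to 5.24% of all genes were called lower in p38i and 2.23% to 5.88% in p38KO, and 2.29% to 10.5% and 4.56% to 12.6% higher. Of 11 listed, 3 were called lower and 0 higher in neutrophils of p38i and 0 lower and 1 higher in p38KO. In monocytes 7 and 4 of 11 were called lower and 0 higher. In macrophages 5 and 3 of 11 were lower, with 1 higher in p38i, and in DC 7 of the 9 tested in each library were lower and 0 higher. In NK cells 6 and 5 of 9 were lower, with 1 higher in p38KO, and in T cells 4 and 3 of 11 were lower and 2 and 3 higher. Fos stood at 595, 275 and 208 CPM in monocytes, at 248, 95.6 and 110 CPM in macrophages and at 359, 60.1 and 95.7 CPM in DC. Their part in the Zfp36 differences was not tested. In T cells Fos was also lower, at 69.8, 25.2 and 32.3 CPM, while Egr2 was higher, at 2.44, 11.5 and 10.1 CPM.

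The enzymes that carry out decay were listed for comparison. Of 26 genes of the deadenylation and decapping machinery, 1 was called higher and 1 lower of 24 tested in p38i neutrophils, and 2 and 0 of 24 in p38KO. In macrophages 0 were higher and 1 lower of 26 in each library, with medians of -0.05 and 0.08 beside -0.01 and 0.07 over all genes. In monocytes, macrophages, NK cells and DC the gene called lower in both libraries was Btg2, an antiproliferative factor that stimulates deadenylation, which stood at 359, 187 and 240 CPM in monocytes, 178, 70.4 and 120 CPM in macrophages, 450, 140 and 215 CPM in NK cells and 499, 162 and 315 CPM in DC. Its p38i log2 ratios ran from -1.69 to -0.95 and its p38KO ratios from -1.07 to -0.58. In monocytes 0 were higher and 1 lower in p38i, and 2 and 1 in p38KO. In T cells 2 were higher and 3 lower in p38i, and 1 and 0 in p38KO, all of 26 tested. In NK cells 0 were higher in either library, with 2 of 23 lower in p38i and 1 of 24 in p38KO. In DC 2 were higher and 2 lower of 14 in p38i, and 1 and 1 of 17 in p38KO. These shares stand beside the ranges over all genes given for the immediate-early genes. In DC Cnot1, the scaffold of the deadenylase, was called higher in both libraries, at 36.6, 76.2 and 84.7 CPM. Cdkn1a and Rel of the target list were also higher in both in DC, at 33.3, 243 and 198 CPM and at 69.9, 143 and 163 CPM.

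Among 20 other regulators of AU-rich or stem-loop elements, 0 of 15 tested were called in either direction in p38i neutrophils and in macrophages of either library, while in p38KO neutrophils 3 of 15 were called higher, where 12.6% of genes were. In NK cells 3 of 13 were lower in p38i and 2 of 13 in p38KO (5.24% and 5.88% of all genes), and 0 were higher. In T cells 1 of 14 was lower in each library (2.19% and 3.37% of all genes) and 0 higher. In monocytes (of 15) and DC (of 12) 1 was higher and 0 lower in each. The shares of all genes called higher were 3.28% and 9.07% in monocytes and 7.93% and 7.07% in DC. The gene called in both libraries in T and NK cells was Malt1, a protease that cleaves Regnase-1. It stood at 279, 191 and 183 CPM in T cells, and its ratios were -0.55 (-0.71 to -0.39) and -0.61 (-0.78 to -0.44). In NK cells it stood at 286, 174 and 172 CPM, with ratios of -0.71 and -0.74. In DC it was called higher instead, at 59.9, 150 and 103 CPM. Khsrp, an AU-rich element binding protein, was also lower in both libraries in NK cells, at 79.2, 50.4 and 48.1 CPM. Zc3h12c, a relative of Regnase-1, was higher in both in monocytes, at 2.46, 7.01 and 8.99 CPM.

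Listed target transcripts were called in both directions, and their counts are given beside the shares of all genes called. In p38i macrophages 32 of the 37 were tested, with 16 called lower and 2 higher (5.24% and 2.29% of all genes) and a median log2 ratio of -0.54 beside -0.01 over all genes. In p38KO macrophages 11 of 33 were lower and 2 higher (3.49% and 9.4%), with a median of -0.18 beside 0.07. In p38i neutrophils 8 of 32 were lower and 2 higher (3.08% and 10.5%), with a median of -0.28 beside 0.14, and in p38KO 1 of 33 was lower and 10 higher (2.23% and 12.6%), with 0.14 beside 0.16. Neutrophils thus had more listed targets lower than higher in p38i and the reverse in p38KO. In p38i monocytes 10 of 33 were lower and 4 higher (4.5% and 3.28%), with a median of -0.25 beside 0.02, and in p38KO 7 of 34 were lower and 6 higher (2.78% and 9.07%), with -0.08 beside 0.10. In NK cells 8 of 18 were lower and 0 higher in p38i (5.24% and 2.86%), with -0.54 beside -0.04, and in p38KO 8 of 19 were lower and 1 higher (5.88% and 4.56%), with -0.49 beside -0.01. In p38i T cells 5 of 29 were lower and 6 higher (2.19% and 5.4%), with 0.08 beside 0.08, and in p38KO 9 of 30 were lower and 4 higher (3.37% and 9%), with -0.03 beside 0.12. Among the 110 Cd8 cells of p38KO 13 of 23 were lower and 0 higher, with a median of -1.06 beside 0.10. Of all genes 5.14% were called lower there. The share called higher there and the counts of the other T cell subsets are not given, so the Cd8 values do not stand for T cells as a whole. In DC 7 targets passed the count limit in p38i, with 1 lower and 2 higher (4.54% and 7.93%), and 9 in p38KO, with 1 lower and 4 higher (3.92% and 7.07%). The list was chosen with earlier results of these data known.

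Il1b and the CXCR2 ligand Cxcl2 were called lower in p38i in neutrophils and macrophages, as Zfp36 was. Il1b stood at 926, 443 and 621 CPM in macrophages, with log2 ratios of -1.06 (-1.15 to -0.98) and -0.58 (-0.63 to -0.52). In neutrophils Il1b was at -0.59 (-0.60 to -0.57) for p38i and, for p38KO, 0.13 (0.12 to 0.15). Cxcl2 stood at 596, 184 and 311 CPM in macrophages, with -1.70 (-1.82 to -1.58) and -0.94 (-1.01 to -0.86), both called lower. Neutrophils held far more of both (12292 CPM of Il1b and 11305 CPM of Cxcl2 in vehicle), and neutrophil markers in the macrophage gate summed to 4073, 2922 and 2162 CPM, whose part in these differences was not tested. Ptgs2, which encodes cyclooxygenase-2, stood at 70.8, 26.2 and 23.1 CPM in macrophages and at 156, 76.9 and 93.4 CPM in monocytes, lower in both libraries in both gates. In monocytes Il1b stood at 1773, 1266 and 1288 CPM, with no call. In T cells Il1b was called higher in both libraries, at 96.3, 184 and 167 CPM, and the part of the neutrophil markers there was not tested. Ccl4, a chemokine, was lower in both in macrophages, at 251, 75.8 and 158 CPM.

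Tnf, the best known target of tristetraprolin, went the other way in macrophages. It stood at 6.45, 14.5 and 17.3 CPM in vehicle, p38i and p38KO. The p38i and p38KO libraries were thus above vehicle, by 1.16 (0.49 to 1.87) and 1.43 (0.85 to 2.05), called higher where 2.29% and 9.4% of genes were. In neutrophils Tnf was at 22.8, 23.3 and 57.3 CPM, called higher in p38KO at 1.33 (1.03 to 1.63) and not in p38i at 0.03 (-0.30 to 0.36). Mast cell markers in the neutrophil gate summed to 7.34, 9.04 and 157 CPM, and their part in the Tnf difference was not tested. In monocytes Tnf stood at 16.4, 15.0 and 15.7 CPM, with no call. In T cells Tnf was lower in p38i, at 50.6, 25.6 and 38.8 CPM, with -0.98 (-1.41 to -0.56). Tnf was thus called higher in p38i macrophages, where Zfp36 was called lower, and in p38KO neutrophils, where it was not.

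**Figure D4:**
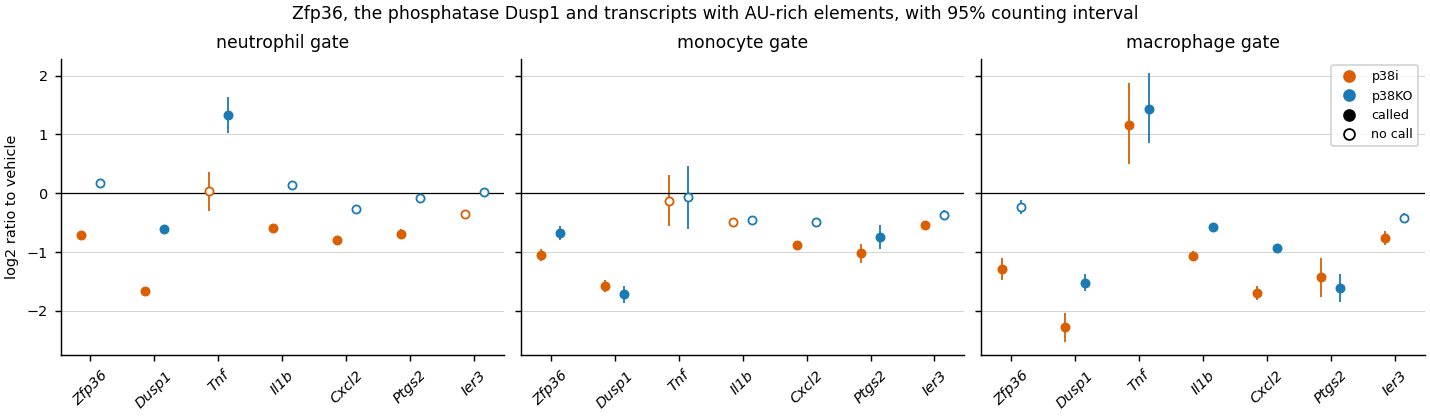
log2 ratio to the vehicle library of Zfp36, Dusp1 and 5 transcripts with AU-rich elements in the neutrophil, monocyte and macrophage gates, p38i and p38KO, with 95% counting intervals (filled points are called). Dusp1 is below 0 in all 3 gates and both libraries, while Tnf is above 0 in macrophages of both and in neutrophils of p38KO.

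Il6, a target of Regnase-1, was scarce. It was called higher in neutrophils, at 0.489, 2.47 and 8.92 CPM, with log2 ratios of 2.33 (0.56 to 4.74) and 4.19 (2.54 to 6.52). Mast cell markers in the neutrophil gate summed to 7.34, 9.04 and 157 CPM, and their part was not tested. Il6 was called lower in macrophages, at 9.22, 2.70 and 1.85 CPM. Vegfa was lower in both libraries in monocytes (292, 194 and 205 CPM) and macrophages (124, 78.9 and 68.3 CPM). Tfrc, the transferrin receptor, and Ccl7 were higher in both in monocytes, with 14.2, 22.4 and 30.2 CPM and with 49.2, 70.1 and 107 CPM. Ctla4 was lower in both in T cells, at 285, 156 and 165 CPM. It was also called lower in the macrophage gate, at 18.4, 0.490 and 2.90 CPM, where T cell markers summed to 170, 53.0 and 154 CPM, and their part was not tested. Ier3 was called lower in p38i in monocytes and macrophages, at -0.54 and -0.76, and not in p38KO. Nfkbiz was at -0.52 (-0.92 to -0.12) in p38i macrophages, called lower, and at 0.07 (-0.22 to 0.36) in p38KO.

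Genes with the motif UUAUUUAUU had medians close to those of all genes. In macrophages 799 were tested in p38i, with a median log2 ratio of -0.03 beside -0.01 over all genes, and 6.63% called lower beside 5.24%. In p38KO macrophages the median was 0.08 beside 0.07. In neutrophils the medians were 0.13 and 0.19 beside 0.14 and 0.16, and in T cells 0.09 and 0.13 beside 0.08 and 0.12. In DC they were 0.10 and 0.14 beside 0.04 and 0.09. The share called lower was most above that of all genes in NK cells, at 7.58% and 8.65% beside 5.24% and 5.88%. It was 6.18% beside 4.5% in p38i monocytes. It was below that of all genes in p38KO neutrophils (1.88% beside 2.23%) and p38KO DC (3.65% beside 3.92%). These differences were not tested.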

How the data were processed

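Single-cell RNA sequencing of live CD45+ cells from 3 pooled tumors per group gave 1 library each for vehicle, p38i and p38KO. The authors ran Cell Ranger (6.0.0 in the matrix headers, build mm10 in the submitters' processing notes, which also name R 4.2.1 and Seurat 5) and deposited raw UMI counts per gene and barcode. The labels name about 100000 sorted cells per library and the v2 chemistry, which the methods state differently.

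As in the study's filter, cells with at least 1500 UMIs, at least 300 genes and at most 20% mt- counts were kept. Each went to the gate with the highest raw count of its genes (at least 1; a cell with C1qa whose highest gate was monocyte went to macrophages; other ties stayed out). No doublets were called; leaving out cells above 3 times the median depth of their gate was an alternative. Counts were summed per gate and library. With 1 library per group no test was possible, so exact 95% intervals for counting error are given. The mean over cells had no interval of its own. Its calls used the interval of the sum, moved to the ratio of the means, which leaves out the spread between cells. A ratio with a count of 0 used 0.5 in its place. UMIs remove most PCR copies. Thinning to 1500 UMIs used seed 1. The ratio, its interval and the call were tested on simulated Poisson counts of the neutrophil and T cell gates, without spread between libraries or cells. Filtering, gating, thinning and motif searches were not tested in this way. Named genes are the 5 members, per list and gate up to 3 genes per direction called the same way in p38i and p38KO (of which the text gives most), 9 genes fixed by name, and the 5 genes most like each member, of which 1 is not reported here. The members, lists and gates were chosen with earlier results of these data known, and the motif searches and Btg2, Fos and Junb promoters after the counts were seen. Sequences came from GENCODE M21 transcripts (GRCm38) and RefSeq promoters (GRCm38.p6), which 4 of the 5 members matched; Zfp36l2 had no entry. Tools were Python 3.11.15, numpy 2.4.6, scipy 1.17.1, pandas 2.3.3 and matplotlib 3.10.9.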

Additional observations from a re-analysis of the deposited data

Results flagged for a closer look

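Zfp36l1 in the p38KO library lay on opposite sides of vehicle in 2 gates, with a log2 ratio of -0.98 in NK cells and 0.77 in DC. The difference between the gates was not tested, and the DC gate of the vehicle library holds 19 cells. Among NK cells without counts of other gates' genes the ratio was -0.15 (-0.74 to 0.45) and not called. Under the other alternatives the NK ratio kept its call. After thinning, the share of DC with a Zfp36l1 count was not above vehicle in p38KO, at 31.0% (17.6 to 47.1) against 36.8% (16.3 to 61.6).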

How the results depend on the processing

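The 18 called member ratios kept their sign under all 9 alternatives of the ratio, and 10 of them kept the call under each. Median-ratio scaling shifted ratios by at most 0.164, so it could not reverse a called ratio. Leaving out shared barcodes kept at least 97.1% of the cells of a gate, so an unchanged sign there says little. Zfp36 in p38i neutrophils was -0.64 without a cell filter, -0.65 among cells without counts of other gates' genes, -0.62 without cells of over 3 times the median depth, -0.85 with median-ratio scaling and -0.62 as the mean over cells. Median-ratio scaling put Zfp36 in p38KO neutrophils at 0.00999. Among cells without counts of other gates' genes, Zfp36 was -1.23 in p38i monocytes, -0.64 in p38i T cells (then called lower) and 0.83 in p38KO NK cells (from 6 and 12 counts), and 3 values were called lower in p38KO. The mean over cells gave Zfp36 -0.91 in p38i and -0.48, no longer called, in p38KO monocytes, and a gate at 2 counts gave the latter -0.54. Where only cells with their own markers highest were kept, chosen after seeing the data, Zfp36 was -0.38 in p38KO monocytes and -0.53 in p38i T cells, and 1 value was called higher in p38i. With a limit of 1 in place of 0.5, 4 values were lower in p38i, and 2 lower and 0 higher in p38KO. The p38KO call of Zfp36 in DC was lost among cells without counts of other gates' genes (-0.26) and as the mean over cells (-0.19). The p38i call of Zfp36l2 in neutrophils was lost without a cell filter (-0.47), without the deepest cells (-0.49) and as the mean over cells (-0.49). The causes were not tested. At their own depth, cells with a Zfp36 count made up 84.0%, 74.2% and 86.6% of neutrophils and 68.6%, 56.6% and 64.6% of macrophages (vehicle, p38i, p38KO), and cells with Zfp36l2 81.2%, 58.2% and 63.1% of T cells and 95.2%, 71.3% and 80.4% of NK cells.

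No paired analysis was possible because each group has 1 library, and for the same reason no library was left out. The DC gate held 19, 37 and 42 cells and the NK gate 105, 108 and 112, which limits their counts, and intervals cover counting error only.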
